A study of Homo sapiens with 5 samples.

Results

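The genes described are 10 neuronal cytoskeleton and growth cone genes, MAP2, MAPT, MAP1B, TUBB3, DCX, STMN2, GAP43, BASP1, NEFL and NEFM, in the human small cell lung cancer (SCLC) cell line NCI-H209. They were chosen by name and matched on the gene symbol in the deposited gene table, which gave 12 entries of the 64837 in the count files, because MAPT has 3. The control group was 3 RNA-Seq libraries of untreated NCI-H209 cells. The co-cultured group was 2 libraries of the same line kept for 24 h below a Transwell insert holding human brain microvascular endothelial cells (HBMECs), so that the cells shared medium through a porous membrane. Both groups come from 1 established line, and the labels do not say whether the replicates were separate cultures, so p-values measure only the spread between these libraries. The question of the comparison was how the endothelial cells of brain vessels alter expression in lung tumor cells.

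Microtubules are built of alpha- and beta-tubulin, and structural microtubule-associated proteins (MAPs) bind along them and stabilise them. In neurons MAP2 is known for dendrites, tau (MAPT) for axons and MAP1B for growing neurites, while doublecortin (DCX) marks migrating immature neurons and stathmins such as STMN2 bind free tubulin and favour disassembly. GAP43 and BASP1 are membrane-bound proteins of the growth cone, the motile tip of an axon, and the neurofilament subunits NEFL and NEFM form the intermediate filaments of axons. SCLC is a neuroendocrine tumor, and its cells are known to express many genes that they share with neurons.

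The libraries held 15457071 to 19157348 counts on the expected strand of genes. The share of reads left unmapped was 8.13% to 8.48% in control and 15.9% to 16.8% in co-cultured libraries. The share on no annotated feature of the expected strand was 47.3% to 51.2% in control and 40.1% to 40.8% in co-cultured libraries. The part of these shares in the results below was not tested. Levels are given in CPM, the count of a gene per 1000000 counts of its library, with TMM factors applied. A count of 3 was taken as the floor, 0.157 to 0.194 CPM by library total, and covers counting error only. Control replicate 1 differed most from the other control libraries, where a chi-square test of counts over genes gave 15.9 and 16.1 per degree of freedom and the other replicate pairs gave 5.75 and 4.19. Of the defining neuroendocrine markers, INSM1 and SYP were present in every library, and CHGA had at most 1 count. The 20 endothelial markers summed to 10.1 to 21.2 CPM in control and 13.7 CPM in both co-cultured libraries, with 5 to 10 of them at 0 counts per library. Of the 9 that could be tested, only ESAM was called higher, with 3 to 6 counts per control library against 21 and 14 after co-culture. ESAM passed the filter on low counts only through the co-cultured libraries, so its call is a description. FLT1, KDR and TEK set control replicates 1 and 2 apart, with 30, 28 and 0 counts of FLT1, 37, 27 and 2 of KDR and 31, 24 and 0 of TEK in the controls and at most 12 of any after co-culture, and none passed the test. The defining endothelial markers PECAM1, CDH5, VWF and CLDN5 did not pass the test or the filter on low counts. In bulk RNA, fewer cells of a type and less RNA per cell cannot be told apart.

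Among the 10 genes, 4 were higher and 2 were lower in co-cultured NCI-H209 cells at an adjusted p under 0.05. MAP2, MAP1B, BASP1 and GAP43 rose by 0.90 to 1.15 on the log2 scale, and DCX and STMN2 fell. TUBB3 and the 2 tested entries of MAPT did not pass the test, and NEFL, NEFM and the primary entry of MAPT had too few counts to be tested. Over all 20360 genes tested, 18.4% were called higher and 15% lower, and with upper-quartile scaling the calls split into 3076 higher and 3929 lower in place of 3750 and 3059. The study called genes by fold change and p without naming the scale or an adjustment. Read as a log2 fold change beyond 1 in either direction and p under 0.05 before adjustment, MAP2, BASP1 and GAP43 were upregulated and DCX and STMN2 downregulated, where 5.44% and 5.01% of all genes tested were, and MAP1B, at 1.86-fold, missed it. The genes were chosen with earlier results of these data known, so these counts are descriptions.

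**Figure D1:**
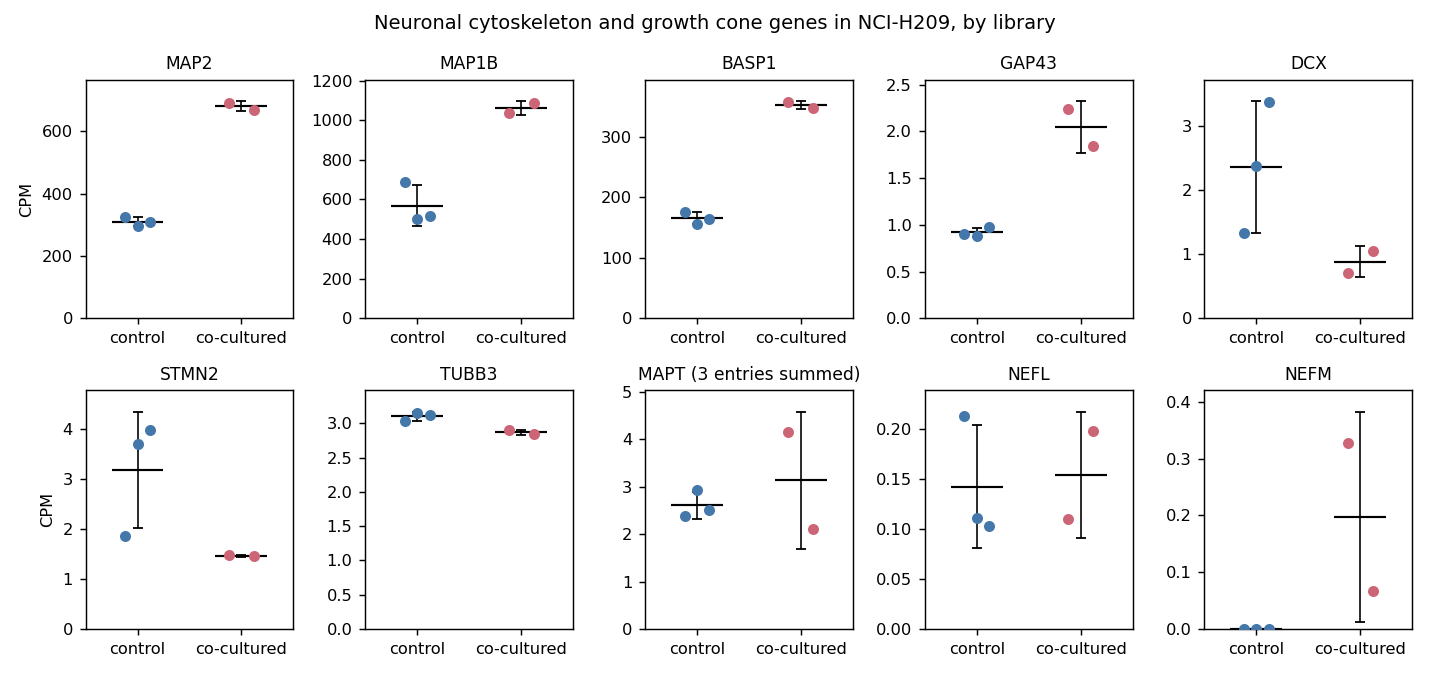
CPM of the 10 genes in each library, with a panel per gene and its own axis from 0. Points are libraries, horizontal lines are group means and bars are SD (3 control, 2 co-cultured). MAP2, MAP1B, BASP1, GAP43 and NEFM lie above every control library in both co-cultured libraries, and DCX, STMN2 and TUBB3 lie below. Of all genes tested, 29.4% lay wholly above in this way and 30% wholly below.

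The genes fell into an abundant and a scarce set. Per kilobase of exon, BASP1 was at 74.7 ± 4.65 CPM, MAP1B at 45.1 ± 8.15 and MAP2 at 26.8 ± 1.29 (SD, n = 3) in control cells, and these 3 levels did not overlap. STMN2 followed at 1.35 ± 0.490 CPM per kilobase, GAP43 at 0.441 ± 0.0222 and DCX at 0.232 ± 0.10 (SD, n = 3). In co-cultured cells the first 3 kept this order at 159 ± 2.70, 84.0 ± 2.78 and 58.8 ± 1.39 CPM per kilobase (SD, n = 2), while GAP43 at 0.980 ± 0.133 stood above STMN2 at 0.620 ± 0.00673. The exons of MAP2, MAP1B, BASP1, GAP43, DCX and STMN2 overlap no other gene model on the same strand, so their whole exonic length could be counted.

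MAP2, on chromosome 2 from 209424058 to 209734118 (GRCh38), was counted 6115, 5343 and 6052 times in the control libraries and 12642 and 10117 times after co-culture. In CPM these were 325, 295 and 310 against 691 and 668, so the groups stood far apart and the spread within each was small. MAP2 rose 2.19-fold, or by 1.13 ± 0.080 (standard error) on the log2 scale (adjusted p = 4.14e-05, Benjamini-Hochberg, by the quasi-likelihood test of edgeR). It ranked 66th by p among all genes tested. The counts do not separate the long dendritic forms of MAP2 from its shorter forms.

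MAP1B, on chromosome 5 from 72107234 to 72209570, was the most abundant of the 10 by counts. Its counts were 12936, 9082 and 10116 in the controls against 18946 and 16427 after co-culture, or 688, 502 and 518 CPM against 1036 and 1085 CPM. Control replicate 1 stood above the other control libraries but below both co-cultured ones. MAP1B rose by 0.90 on the log2 scale (standard error 0.13, adjusted p = 0.00110, edgeR), and without control replicate 1 its log2 fold change was 1.06.

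BASP1, on chromosome 5 from 17065598 to 17276843, was counted 3314, 2814 and 3224 times in the controls and 6536 and 5280 times after co-culture. These were 176, 156 and 165 CPM against 357 and 349 CPM, again without overlap. BASP1 rose 2.13-fold, or by 1.09 ± 0.081 (standard error) on the log2 scale (adjusted p = 4.73e-05, edgeR). An antisense gene, BASP1-AS1, lies across it, and 2.93% of the reads on BASP1 were on the opposite strand, which the strand-specific counts leave out.

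GAP43, on chromosome 3 from 115623324 to 115721490, is like BASP1 a substrate of protein kinase C at the membrane, but was scarce in these cells. Its counts were 17, 16 and 19 in the controls against 41 and 28 after co-culture, or 0.904, 0.885 and 0.973 CPM against 2.24 and 1.85 CPM. Both co-cultured libraries were above the controls, from few counts. GAP43 rose by 1.15 on the log2 scale (standard error 0.29, 95% confidence interval 0.51 to 1.8, adjusted p = 0.0137, edgeR). With only 1 co-cultured library the call was lost, at an adjusted p of 0.141 without co-cultured replicate 1 and 0.0566 without co-cultured replicate 2, while the log2 fold change stayed between 1.01 and 1.28.

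**Figure D2:**
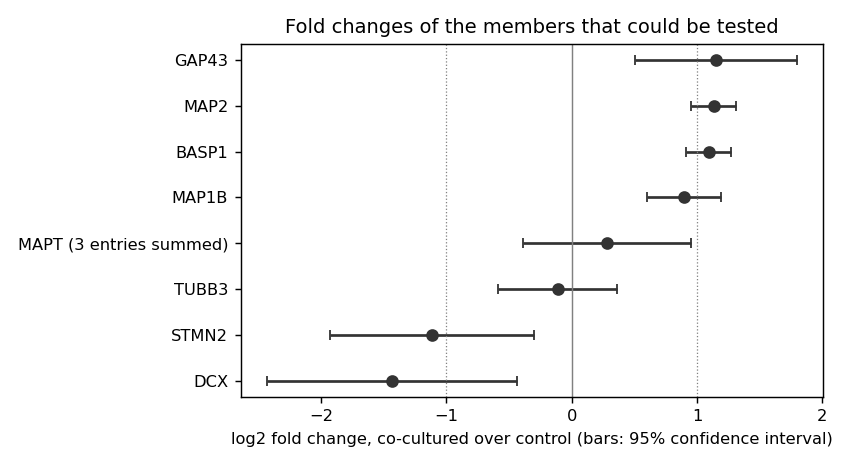
Log2 fold changes, co-cultured over control, of the genes that could be tested, with MAPT as the sum of its 3 entries. Bars are 95% confidence intervals from the edgeR fit and dotted lines mark an absolute log2 fold change of 1; the intervals of GAP43, MAP2, BASP1 and MAP1B lie above 0, those of STMN2 and DCX below 0, and those of MAPT and TUBB3 cross it.

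DCX, on chromosome X from 111293779 to 111412429, was counted 25, 43 and 66 times in the controls and 13 and 16 times after co-culture. In CPM these were 1.33, 2.38 and 3.38 against 0.711 and 1.06, so the groups did not overlap but control replicate 1 lay close to the co-cultured libraries. DCX fell by 1.43 on the log2 scale (standard error 0.44, 95% confidence interval -2.43 to -0.43, adjusted p = 0.0343, edgeR). The call rested on most of the libraries: the adjusted p was 0.0707 without control replicate 2, 0.0985 without control replicate 3, 0.238 without co-cultured replicate 1 and 0.104 without co-cultured replicate 2. Over all alternatives run it ranged from 0.000322 to 0.238, and the log2 fold change from -1.72 to -1.04.

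STMN2, on chromosome 8 from 79610814 to 79666175, was counted 35, 67 and 78 times in the controls and 27 and 22 times after co-culture. These were 1.86, 3.70 and 3.99 CPM against 1.48 and 1.45 CPM, and control replicate 1 was again the lowest control library. STMN2 fell by 1.12 on the log2 scale (standard error 0.36, 95% confidence interval -1.93 to -0.30, adjusted p = 0.0403, edgeR). The call was lost without control replicate 2 (adjusted p = 0.108), control replicate 3 (0.118), co-cultured replicate 1 (0.193) or co-cultured replicate 2 (0.178), and over all alternatives the adjusted p ranged from 0.000305 to 0.193. With unstranded counts it was 0.0583.

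**Figure D3:**
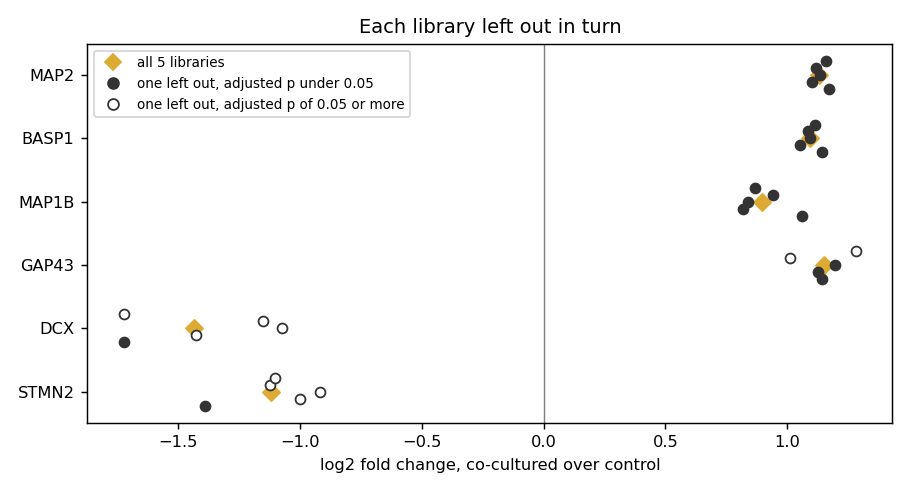
Log2 fold changes of the 6 called genes with all 5 libraries (diamonds) and after leaving out each library (circles, filled where the adjusted p is under 0.05). MAP2, BASP1 and MAP1B stay called in every case, GAP43 is not called without either co-cultured library, and DCX and STMN2 stay called only without control replicate 1.

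Within the stathmins, STMN2 was a small part. It made up 0.806% ± 0.353 (SD, n = 3) of the counts on STMN1 to STMN4 in control cells against 0.522% ± 0.0176 (SD, n = 2) after co-culture (exact two-sided permutation test, p = 0.4, where 0.1 is the smallest p that 3 libraries against 2 can give). STMN1 and STMN3, the abundant stathmins, fell by 0.52 and 0.64 on the log2 scale (adjusted p = 0.00560 and 0.00534). STMN4, a brain-enriched member, went the other way from 2, 3 and 6 counts in the controls to 24 and 21 after co-culture, a rise of 2.75 ± 0.47 (standard error) on the log2 scale (adjusted p = 0.00238, edgeR). STMN4 passed the filter on low counts only through the co-cultured libraries, so its call is a description. In the doublecortin family, DCLK1 rose by 0.50 and DCDC2 by 1.19 on the log2 scale (adjusted p = 0.00113 and 0.000122), opposite in sign to DCX, while DCLK2 and DCLK3 had log2 fold changes of -0.26 and -0.37 that did not pass the test (adjusted p = 0.134 and 0.256).

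TUBB3, the beta-tubulin commonly used as a neuronal marker, lies on chromosome 16 from 89921392 to 89938761. Its counts were 57, 57 and 61 in the controls against 53 and 43 after co-culture, or 3.03, 3.15 and 3.12 CPM against 2.90 and 2.84 CPM. The groups did not overlap, as for 30% of all genes tested in this direction, but the difference was small and did not pass the test (log2 fold change -0.11, 95% confidence interval -0.59 to 0.36, adjusted p = 0.715, edgeR). This value covers only a portion of the gene. In the annotation a read-through gene, AC092143.1, shares exons with TUBB3 on the same strand, and STAR assigns a read that overlaps both genes to neither. Over all TUBB3 transcripts, 2846 of 4430 exonic bases (64.2%) and 651 of 1944 coding bases (33.5%) lie outside the shared exons. Of the 1769 exonic bases of a 4-exon transcript of TUBB3, 185 lie outside the shared exons, and of its 1353 coding bases 57 do. AC092143.1 itself had 0 counts in every library. The following sequence is the whole coding stretch of this transcript that could be counted, chr16:89923402-89923458 on the plus strand of GRCh38 from GENCODE, with the start codon in capitals, and it is shown because the TUBB3 level rests on it and on untranslated or alternative exons.
TUBB3 coding bases outside shared exons: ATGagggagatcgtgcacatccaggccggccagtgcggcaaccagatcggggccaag

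The level of TUBB3 is therefore not comparable with those of other beta-tubulins. By counts it was, in a total of TUBB, TUBB2A, TUBB2B, TUBB3, TUBB4A, TUBB4B and TUBB6 that leaves out TUBB1 and TUBB8, 0.679% ± 0.118 (SD, n = 3) in control cells against 0.856% ± 0.0190 (SD, n = 2) after co-culture (exact two-sided permutation test, p = 0.2, smallest possible 0.1). TUBB, another beta-tubulin, had 0 counts in every library, so it adds nothing to this total. Whether TUBB was unexpressed or its reads were counted for no gene was not tested. TUBB4B, the most abundant counted beta-tubulin, fell by 0.76 on the log2 scale from 353 ± 55.8 CPM (SD, n = 3) down to 208 ± 4.66 CPM (SD, n = 2), and TUBB2A rose by 0.59 (adjusted p = 0.0202). TUBB2B and TUBB6 had log2 fold changes of 0.11 and 0.29 that did not pass the test (adjusted p = 0.485 and 0.361), and TUBB4A had at most 6 counts.

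MAPT has 3 entries in the counts, the primary one on chromosome 17 from 45894382 to 46028334 and 2 on patch or haplotype sequences. Reads that align equally well to several copies are counted for none of them by STAR, so the entries hold only reads that one copy matched best. The primary entry had 4, 1 and 1 counts in the controls against 5 and 3 after co-culture. The entry ENSG00000276155 had 12, 17 and 17 counts against 24 and 10, and ENSG00000277956 had 29, 35 and 31 against 47 and 19. In CPM, co-cultured replicate 1 lay above all the controls in both of these entries. Co-cultured replicate 2 lay below the controls in ENSG00000277956, and in ENSG00000276155 it was at 0.661 CPM, within the 0.638 to 0.940 CPM of the controls. Summed, the entries averaged 2.61 ± 0.283 CPM (SD, n = 3) in control cells against 3.13 ± 1.44 CPM (SD, n = 2) after co-culture (log2 fold change 0.28, 95% confidence interval -0.39 to 0.96, adjusted p = 0.504, edgeR). The log2 fold change of MAP2, 1.13, lies above this interval, but the intervals of the genes overlap, that of MAP2 starting at 0.952 and that of MAPT ending at 0.955. The sum also holds only reads that one copy matched best, so it does not decide whether MAPT changed as much as MAP2.

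The neurofilament subunits were at or near the floor. NEFL, on chromosome 8 from 24950955 to 24957110, had 4, 2 and 2 counts in the controls against 2 and 3 after co-culture. NEFM, on the same chromosome from 24913012 to 24919098, had 0 counts in all 3 control libraries and 6 and 1 after co-culture. A difference in either was not detectable at this depth under the filter on low counts, and with a filter of 1 count in any library NEFM was called higher (adjusted p = 0.0346, edgeR). NEFM passed that looser filter only through its few counts in the co-cultured libraries, so this call cannot serve as support for a rise. NEFH, the heavy subunit, had 30, 16 and 38 counts in the controls against 41 and 43 after co-culture (log2 fold change 0.77, adjusted p = 0.109). NEFL made up 9.29% ± 3.73 (SD, n = 3) of the counts on these 3 subunits in control cells against 5.23% ± 1.63 (SD, n = 2) after co-culture (exact two-sided permutation test, p = 0.3), from 5 or fewer NEFL counts per library. Alpha-internexin (INA), a filament protein of developing neurons, was more abundant, at 110 ± 17.5 CPM (SD, n = 3) in control cells against 101 ± 2.41 CPM (SD, n = 2) after co-culture (log2 fold change -0.12, adjusted p = 0.478).

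**Figure D4:**
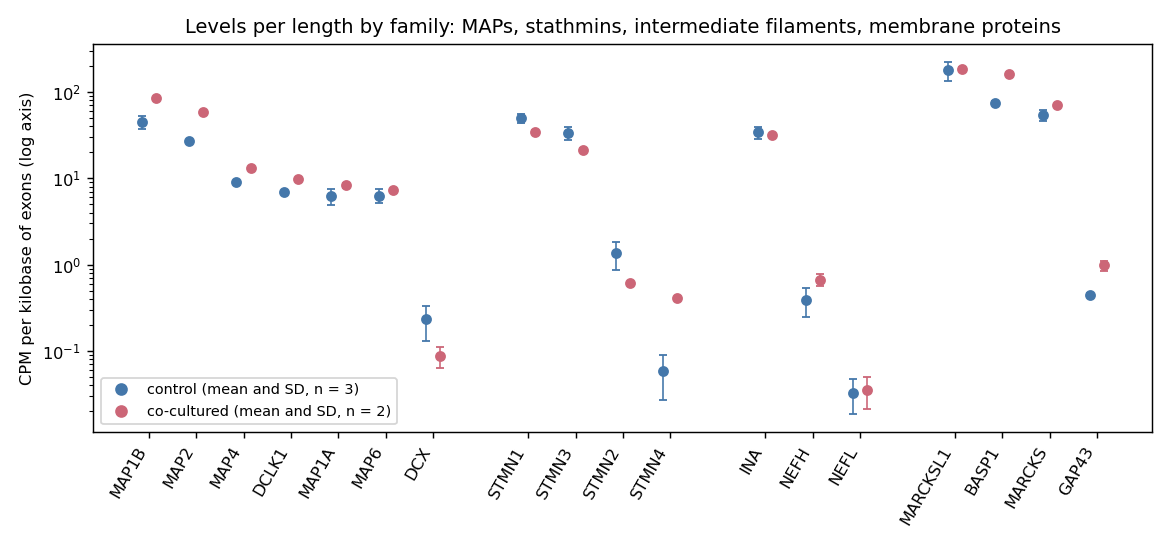
CPM per kilobase of exon that could be counted, on a log axis, for MAPs, stathmins, intermediate filament proteins and growth cone membrane proteins. Points and bars are means and SD of control (n = 3) and co-cultured (n = 2) libraries; BASP1, MAP1B and MAP2 lie above 20 in both groups, while DCX, NEFL and NEFH lie below 1.

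The 250 bases upstream of the RefSeq starts (GRCh38.p14) were searched on both strands in only 6 of the 10 genes. The motifs were an E-box CAGCTG, the hypoxia response core ACGTG, the GC box GGGCGG and the TATA box TATAAA. MAP2, MAP1B, BASP1, GAP43, TUBB3 and DCX had 12 windows in all, of which only 1, in DCX, held no base of an annotated exon. Windows of MAPT, STMN2, NEFL and NEFM were not included, so the motif counts do not cover STMN2, which fell. The BASP1 window was exonic over all its 250 bases and the first MAP1B window over 241, and the MAP1B TATA box at the first start lies inside the annotated gene. The GC box was found in 4 windows and the TATA box in 3, against 42.6% and 10.7% of all 35116 windows in the table. The E-box was found in 1 window, that of BASP1 (14% of all windows), and the hypoxia core in none (18.5% of all windows). The windows of the rising genes were unlike each other in composition: the GC content was 70% and 60.4% in MAP1B, 65.6% in BASP1, 51.6% in GAP43 and 37.6% to 51.2% in MAP2, where the median of all windows was 58%. The stretches below, of 30 bases each with the matched letters in capitals, show 3 of the 7 matches in MAP1B and both in BASP1, genes that rose, and the match in DCX, which fell. They are matches of letters and not known binding sites, and the counts do not bear on which start was used.
MAP1B TATA box, first start, chr5:72107291-72107320, plus strand: gcctagtctccaTATAAAagcggcgccgcc
MAP1B TATA box, second start, chr5:72179745-72179774, plus strand: caaatccgatccTATAAAaaggcttttgtt
MAP1B GC box, first start, chr5:72107417-72107446, plus strand: gggggacgcaggGGGCGGagcggagacagt
BASP1 E-box, chr5:17216718-17216747, plus strand: ctctcgccccacCAGCTGgacctcggcgac
BASP1 GC box, chr5:17216793-17216822, plus strand: tgcgggtgcaggtgcggagCCGCCCaaggt
DCX TATA box, chrX:111412365-111412394, minus strand: tttcctgttggtTATAAAtgaaacctttct

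The other genes of the neuronal cytoskeleton were read from lists written with earlier results known, as counts beside the 18.4% higher and 15% lower over all genes tested. Of 51 other growth cone genes tested, 22 were higher and 5 lower, and the median log2 fold change was 0.23 where that of all genes was -0.03. FEZ1, an adaptor for axonal transport, rose by 1.77 on the log2 scale, from 7.81 ± 1.61 CPM (SD, n = 3) up to 26.6 ± 0.967 CPM (SD, n = 2). With only 1 co-cultured library fewer growth cone genes were called higher, 9 without co-cultured replicate 1 and 11 without co-cultured replicate 2, as were fewer of all genes (1749 and 1910). PLPPR2 and TMOD1, which caps actin filaments, rose by 1.15 and 0.93. MARCKS, a protein kinase C substrate of the same kind as GAP43 and BASP1, rose by 0.37 (adjusted p = 0.0362), and the log2 fold change of MARCKSL1 was 0.06 (adjusted p = 0.817).

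Of 39 other MAPs and plus-end proteins tested, 14 were higher and 6 lower (median 0.02). MAP7D1, MAP7D2 and DCDC2 rose by 1.22, 0.93 and 1.19 on the log2 scale, and MAP4, the widely expressed relative of MAP2 and tau, rose by 0.54. MAP1A and MAP6 had log2 fold changes of 0.42 and 0.20 that did not pass the test (adjusted p = 0.0567 and 0.286). Of 28 kinases and other enzymes that act on MAPs, 11 were higher and 1 lower (median 0.31), and FYN, PRKACA and BRSK1 rose by 0.88, 0.83 and 0.80. Of 33 axonal motor genes, 12 were higher and 3 lower (median 0.28), with rises of 0.83 for the kinesin KIF5C, 0.87 for KIF21B and 0.61 for KIF1C.

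The remaining lists were tubulins, tubulin enzymes, spectrins and intermediate filament genes. Of 14 other tubulins tested, 3 were higher and 1 lower (median 0.19), among them TUBG1, which nucleates microtubules, and TUBA4A, with rises of 0.72 and 0.70. Of 26 tubulin-modifying and severing enzymes, 3 were higher and 8 lower (median -0.23). The deacetylase HDAC6 and the ligase TTLL3 fell by 0.76 and 0.94, and the polyglutamylase TTLL7 rose by 0.61. Of the coding bases of TTLL3, 34.3% lie outside other gene models. Of 19 spectrin, ankyrin and axon initial segment genes, 7 were higher and 3 lower (median 0.06). ANK2 fell by 0.94 on the log2 scale, from 1089 ± 178 CPM (SD, n = 3) down to 568 ± 50.1 CPM (SD, n = 2), and ANK3, the ankyrin of the axon initial segment, rose by 0.47. The cytoplasmic actin ACTG1 fell by 1.0. Of 14 other intermediate filament genes and linkers, 5 were higher and 2 lower (median 0.29), and TRIM2, a ubiquitin ligase for NEFL, rose by 0.73, DESI1 by 0.50 and the linker dystonin (DST) by 0.48.

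**Figure D5:**
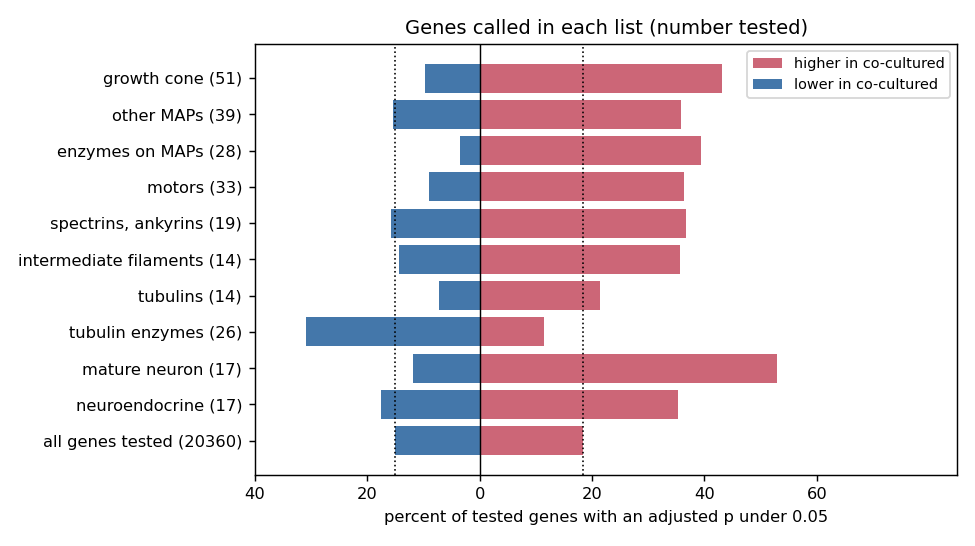
Percent of the tested genes of each list called higher (right) or lower (left) in co-cultured cells at an adjusted p under 0.05, with the number tested in brackets. Dotted lines mark the shares over all 20360 genes, 18.4% and 15%; the growth cone list has 43.1% higher, and the list of tubulin-modifying and severing enzymes, shown as tubulin enzymes, 30.8% lower.

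Markers of mature neurons and of neuroendocrine cells were counted beside them. Of 17 tested genes of mature neurons, 9 were higher and 2 lower (median 0.41). THY1 and STX1A rose by 1.49 and 1.0, and SYN2 fell by 0.93. RBFOX3, the nuclear marker NeuN, did not exceed 6 counts in a library, and GAD2 did not exceed 1. Of 17 tested neuroendocrine markers, 6 were higher and 3 lower (median 0.14), with rises of 0.57 for SYP and 0.86 for SCG2. The 3 lower were DDC, DLL3 and STMN1, which fell by 0.58, 0.35 and 0.52, and INSM1 had a log2 fold change of -0.04 that did not pass the test. The summed level of the 18 neuroendocrine markers was 3099 to 3735 CPM in control and 4066 to 4093 CPM in co-cultured libraries.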

How the data were processed

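Per the labels, RNA of NCI-H209 cells was rRNA-depleted and made into directional libraries, and the submitters' processing notes name STAR 2.6.1b, CASAVA 1.8, DESeq2 and GRCh38. The authors deposited raw counts per gene for each library, without regard to strand and for each strand, in STAR's layout. The strand that held 92.3% to 93.1% of the stranded counts was used. The authors also deposited a table with the mean normalized signal of each group, which matched the counts divided by median-ratio size factors, and fold changes and p-values of their own comparison, which were not used. Gene symbols of the 10 genes came from that table and gene models from GENCODE 29, whose identifiers match the count files.

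Counts were filtered with filterByExpr, scaled by TMM and compared with edgeR 4.0.16 (R 4.3.3) by its quasi-likelihood test over 20360 genes, with Benjamini-Hochberg adjustment. The common dispersion was 0.0103. Standard errors are the log2 fold change over the square root of F. On simulated libraries with 19848 genes tested and 200 genes changed, 59 of 96 genes changed by 1 on the log2 scale were called. For a change of 1.5 it was 76 of 98, and there were 17 false calls. In the data 33.4% of genes were called, a far larger share than was changed in the simulation, so these rates need not carry over. The members and lists were chosen with earlier results of these data known. Besides the 10 genes, those named are the 3 with the smallest p among called genes of each list and the relatives of the 10. The third such gene of the neuroendocrine list is not reported here. ESAM and other markers, CHGA, DDC, DLL3, RBFOX3, GAD2, MAP4, MAP1A, MAP6, DCLK1, DCLK2, DCLK3, FLT1, KDR, TEK, INA, MARCKS and MARCKSL1 were named after their values were seen. Alternatives were DESeq2 1.42.0, other scalings and filters, unstranded counts, protein-coding genes only, a replicate block and each library left out. The sum of the MAPT entries was added after the data were seen. Plots were drawn with matplotlib 3.10.9.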

Additional observations from a re-analysis of the deposited data

How the results depend on the processing

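MAP2, MAP1B and BASP1 were called higher in all 13 alternatives run for each, with log2 fold changes of 1.05 to 1.18, 0.82 to 1.06 and 1.01 to 1.15. GAP43 was called in 11 of 13, DCX in 8 and STMN2 in 7, all with their direction kept. TUBB3 was not called in any of 14. Under a filter of 1 count in any library NEFM was also called higher (adjusted p = 0.0346, edgeR). It passed that filter only through 6 and 1 counts in the co-cultured libraries, so the call cannot serve as support for a rise. With this filter the adjusted p of MAP2 was 2.35e-32 (edgeR), against 4.14e-05 under the main filter, so its p-values are unlike those of the main fit. The genes called lower among the 10 numbered 1 with unstranded counts and 0 with the replicate block, and 0 to 2 with each library left out. Those downregulated by the fold criterion numbered 1 with unstranded counts, 1 with the replicate block and 0 to 2 with each library left out. The log2 fold change of the MAPT entry ENSG00000276155 ran from -0.29 to 0.69 and that of ENSG00000277956 from -0.42 to 0.61 with each library left out, both negative without co-cultured replicate 1. Over all genes, leaving out each library gave 1749 to 5295 higher and 985 to 4602 lower. The cause of these changes was not tested, other than that fewer libraries were used. Replicate numbers 1 and 2 are shared by the groups, and the deviations of same-numbered libraries from their group means correlated at -0.114 and -0.067. With 2 co-cultured libraries these deviations mirror each other, so the values cannot tell whether same-numbered libraries were paired. With the replicate block, 2771 genes were higher and 2053 lower. Only the control group has a replicate 3, so under the block that library added nothing to the difference between groups.

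For the lists, 239 of 308 counts stayed within 1.5 times. With the replicate block, tubulins lower numbered 2, other MAPs lower 3, enzymes on MAPs lower 0, growth cone genes lower 3, motors 7 higher and 1 lower, spectrins higher 3 and endothelial markers lower 3. Under the filter of 1 count, tubulins had 6 higher and 2 lower, intermediate filament genes 8 higher and endothelial markers 3 lower. With unstranded counts, tubulins had 5 higher and 2 lower, and endothelial and neuroendocrine markers 1 lower each. With upper-quartile scaling, tubulins had 2 lower, growth cone genes 8 lower and spectrins 4 higher. Over protein-coding genes, tubulins had 2 lower and spectrins 4 higher. With at least 10 counts in every library 0 endothelial markers were higher, and by DESeq2 1 was lower. With each library left out, the counts higher and lower ran from 2 to 8 and 1 to 3 for tubulins, 1 to 4 and 4 to 13 for tubulin enzymes, 4 to 18 and 0 to 3 for enzymes on MAPs, 2 to 8 and 0 to 2 for intermediate filament genes, 9 to 30 and 1 to 9 for growth cone genes, 4 to 19 and 0 to 4 for motors, 0 to 9 and 2 to 5 for spectrins, 0 to 1 and 0 to 3 for endothelial markers, 3 to 8 and 0 to 4 for neuroendocrine markers, and the counts lower from 1 to 10 for other MAPs and 1 to 2 for neuron genes. Some list medians changed sign, other MAPs to -0.060 with upper-quartile scaling and -0.050 over protein-coding genes, spectrins to -0.024 and -0.015 in these and to between -0.0053 and 0.16 with a library left out, and endothelial markers to 0.077 over protein-coding genes and to between -0.24 and 0.48 with a library left out (0.48 without control replicate 1).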
